A study of Mus musculus with 17 samples.

Results

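Macrophages labelled Smad3 knockout were compared with wild-type macrophages after both had been given transforming growth factor beta 1 (TGF-β1). The comparison took every library whose title gives TGF-β1 treatment, 7 of the 17 in the series: 4 wild-type libraries and 3 labelled knockout. All came from bone marrow of C57BL/6J mice, grown for 7 days with 50 ng/ml of M-CSF, the growth factor that drives macrophage differentiation, and then for 5 days with 5 ng/ml of TGF-β1. The 5 wild-type and 5 labelled-knockout control libraries carry the same treatment text, so their group was taken from the title and their time in culture is uncertain. The sources name neither the Smad3 allele nor the cells that lack the gene. The study asks which genes of the macrophage-to-myofibroblast transition depend on Smad3. Sorting by smooth muscle actin is mentioned in the design text, but no label ties a library to a sort, and that division was not analysed here.

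TGF-β1 binds a receptor pair of serine/threonine kinases, which phosphorylate Smad2 and Smad3. These join Smad4, move to the nucleus and bind DNA, often at the short sequence CAGAC, while Smad7 is induced as a brake. In macrophages the pathway is known for restraining inflammatory and scavenger genes, and in kidney and other organs it drives matrix production by myofibroblasts.

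Values are TPM, transcript abundances scaled to the same total in each library and corrected for length, so the number of reads behind each value is unknown. Between 8218 and 10307 genes reached TPM 1 in the 7 libraries. Macrophage genes were abundant in all 7, with Cd68 at 1129 to 2897 TPM, Csf1r at 563 to 1197 TPM and Lyz2 at 13803 to 32935 TPM. Mertk, a receptor for dying cells, was at 0.02 TPM or less in wild type and at most 6.68 TPM in the libraries labelled knockout. Among 24 genes that every cell uses, 0 were listed at 0 in any of the 7. Across genes, the correlation of log2(TPM + 1) had a median of 0.704 among wild-type libraries, 0.741 among libraries labelled knockout and 0.707 between them, with genes not being independent replicates. Of genes with a mean of 10 to 50 TPM over the other libraries of the same group, 14.8% were listed at 0 in wild-type library 3 and 11.9% in labelled-knockout library 2, against 4.78% to 9.64% in the other 5. The labels tie no library to an animal or culture, and it is unclear whether a library was made from 1 cell or from many. The p-values therefore speak only of how libraries scatter, part of which may be technical. In the main limma fit, the SE and p-value of a gene take its spread from all 17 libraries, the controls included. A gene with scattered controls can therefore fail to pass although its 7 TGF-β1 libraries split by genotype.

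Smad3 itself went against the labels. Under TGF-β1 every wild-type library listed it at 0, and the 3 labelled knockout had 6.18, 0.01 and 22.26 TPM. The difference was 2.47 on the log2(TPM + 1) scale (two-sided exact permutation p = 0.0286, the smallest that 4 against 3 libraries allow). That p rests on counting 0.01 TPM in labelled-knockout library 2 as above 0. In limma the same difference did not pass (adjusted p = 0.904). In the controls, Smad3 was at 0, 0.01, 0, 15.38 and 11.54 TPM in wild type and at most 1.93 TPM in libraries labelled knockout, and the genotypes overlapped (exact permutation p = 0.365). Gene-level TPM does not show which exons the reads came from, so these values do not check whether the gene was disrupted. Every direction below rests on the labels.

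Few genes were called between the genotypes. Of 12158 genes tested, 12 were higher in the libraries labelled knockout (0.0987%) and 7 were lower (0.0576%) at a Benjamini-Hochberg adjusted p under 0.05 in limma. Before adjustment, 390 were higher and 248 lower at a p under 0.05 in limma. Together they are close to the number that this threshold gives without any difference. Without the 6 libraries that had over 10% of such moderate genes at 0 (wild-type 3, labelled knockout 2 and 4 controls), 6 were higher and 1 lower, and 5 of the 19 called genes kept their call. The median difference over all genes tested was 0.06, with 52.9% of genes positive. All 3 libraries labelled knockout lay above all 4 wild-type libraries for 383 genes (3.15%) and below them for 284 (2.34%). The 7 libraries can be regrouped in 35 ways, and each of these splits is 1 of them (a rate of 0.0286). Both shares are near that rate, so lack of overlap alone does not mark a genotype difference. The 19 called genes were 7 protein-coding genes, 10 processed pseudogenes and 2 genes with no symbol, spread over 12 chromosomes. Processed pseudogenes, copies of a messenger RNA inserted elsewhere in the genome, were 3.70% of the genes tested. Chromosome 9, which carries Smad3, held 2 called genes, Rpl29 and Gm10157, and 5.36% of the genes tested that had a chromosome.

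Npy encodes neuropeptide Y, a signalling peptide best known from neurons. It was at 0.28, 0.29, 0.20 and 0.99 TPM in wild type, and at 748, 1343 and 637 TPM in the libraries labelled knockout. The groups did not approach each other, and the difference was 9.26 ± 0.75 (log2, SE; adjusted p = 1.07e-06). The same split held without TGF-β1, where wild-type controls were at 0.09 to 0.41 TPM and labelled-knockout controls at 173 to 1285 TPM, a difference of 8.71 (adjusted p = 1.09e-07). Npy was called in each of the 7 analyses that left out 1 library.

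Cd36 encodes a scavenger receptor that takes up oxidised lipoproteins and long-chain fatty acids. It was at 0.09, 0.06, 0.29 and 0.36 TPM in wild type and at 282.51, 38.81 and 51.95 TPM in the libraries labelled knockout. Every wild-type library was near 0, and library 1 among those labelled knockout was far above the other 2. The difference was 6.14 ± 1.02 (log2, SE; adjusted p = 0.00737), and without labelled-knockout library 1 it was not called (adjusted p = 0.0823). It was also not called with a pseudocount of 10, with no filter on low values or with the 7 TGF-β1 libraries fitted alone (adjusted p up to 0.378). In controls the genotypes overlapped, with 21.54 to 1161 TPM in wild type and 97.79 to 861.37 TPM in libraries labelled knockout (log2 difference 1.06, adjusted p = 0.927).

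Ctsd encodes cathepsin D, an aspartic protease of the lysosome and one of the most abundant transcripts here. It was at 31342, 27631, 16485 and 32752 TPM in wild type and at 9714, 5591 and 6261 TPM in the libraries labelled knockout. The lowest wild-type library, library 3, was still above the highest of the other group. The difference was -1.91 ± 0.34 (log2, SE; adjusted p = 0.0152). In controls the ranges were 4365 to 11722 TPM in wild type and 5548 to 12633 TPM in libraries labelled knockout, a difference of 0.47 (adjusted p = 0.907). Ctsd lost its call in 5 of the 7 analyses without 1 library (wild-type 1, 2 or 4, labelled knockout 2 or 3), with adjusted p up to 0.125 and the same direction throughout, and in 5 of 12 other settings (adjusted p up to 0.291).

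Dcstamp encodes a membrane protein needed for fusion of macrophage-lineage cells into osteoclasts and giant cells. Wild-type libraries were at 0.13, 0.09, 0 and 0.06 TPM, and libraries labelled knockout at 389.98, 514.80 and 373.07 TPM. The 3 high values were close together, and the difference was 8.63 ± 1.72 (log2, SE; adjusted p = 0.0440). Control libraries of each genotype were mixed, with 108.34 TPM in 1 wild-type library and 0.29 TPM or less in the other 4, and 0 to 224.75 TPM in libraries labelled knockout. Its adjusted p lay just under the threshold, and it was called in 0 of the 7 analyses without 1 library (adjusted p up to 0.164) and in 5 of 12 other settings.

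Chac2 encodes an enzyme that degrades glutathione. It was at 0, 0.11, 0 and 0 TPM in wild type and at 8.62, 16.10 and 52.27 TPM in the libraries labelled knockout, a difference of 4.33 ± 0.84 (log2, SE; adjusted p = 0.0396). It kept its call in 1 of the 7 analyses without 1 library, the one without labelled-knockout library 1 (adjusted p up to 0.176 in the others), and in 1 of 12 other settings. Chac2 was 0 in every wild-type control and in 3 of the 5 labelled knockout.

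**Figure D1:**
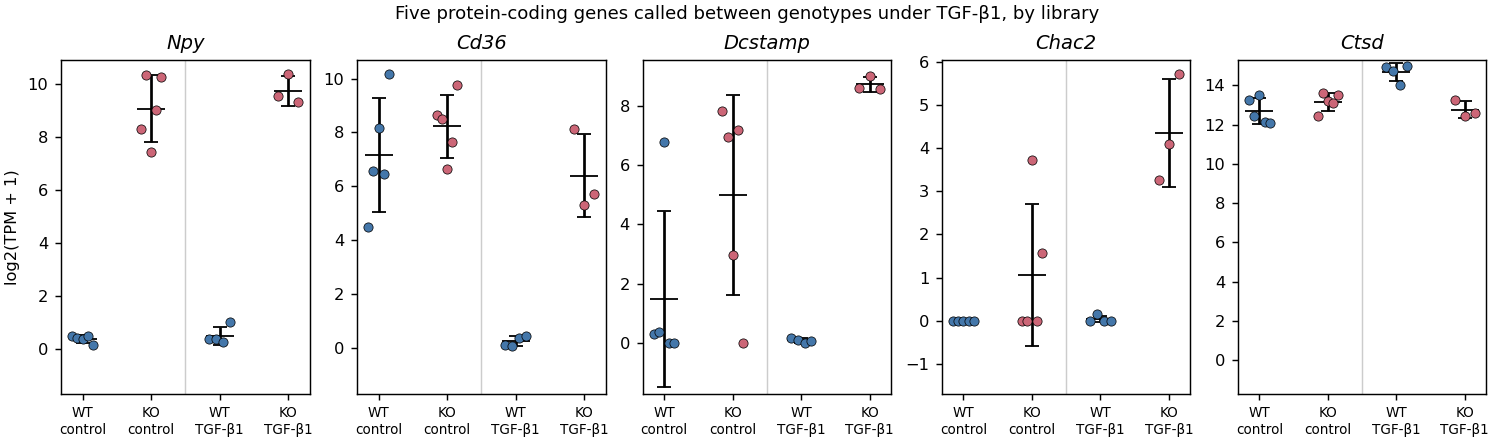
Level of 5 called protein-coding genes, in log2(TPM + 1), in each of the 17 libraries by genotype and treatment, where KO means labelled knockout. Points are libraries, and bars are the mean ± SD of a group. Npy is split by genotype in both treatments, while Cd36, Dcstamp, Chac2 and Ctsd overlap in controls and separate under TGF-β1.

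Upstream sequences are shown for the 3 of these genes that were called and still passed once copies were summed (next), and for which RefSeq promoters were at hand, because Smad proteins act through such regions. Each run is the 250 bases before the annotated start, in GRCm38.p6, 5′ to 3′, with CAGAC on either strand in capitals.
Npy, chr6:49822460-49822709, plus strand: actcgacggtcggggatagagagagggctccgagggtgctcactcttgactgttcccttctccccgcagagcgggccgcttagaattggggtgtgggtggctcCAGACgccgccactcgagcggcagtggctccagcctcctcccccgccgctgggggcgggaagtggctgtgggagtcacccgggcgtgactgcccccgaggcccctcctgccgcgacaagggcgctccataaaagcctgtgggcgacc
Cd36, chr5:17835897-17836146, minus strand: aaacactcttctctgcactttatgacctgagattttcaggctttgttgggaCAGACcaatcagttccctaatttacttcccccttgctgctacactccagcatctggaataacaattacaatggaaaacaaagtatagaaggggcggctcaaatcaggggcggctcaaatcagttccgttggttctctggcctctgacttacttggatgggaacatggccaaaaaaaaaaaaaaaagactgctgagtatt
Ctsd, chr7:142387828-142388077, minus strand: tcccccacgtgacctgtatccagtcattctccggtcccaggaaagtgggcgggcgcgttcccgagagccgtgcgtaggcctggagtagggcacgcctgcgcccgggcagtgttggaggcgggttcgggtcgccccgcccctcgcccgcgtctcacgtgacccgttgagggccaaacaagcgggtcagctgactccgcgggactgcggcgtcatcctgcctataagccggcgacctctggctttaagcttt
CAGAC occurred once in the Npy and once in the Cd36 stretch and not in that of Ctsd, and 42.2% of the 32851 mouse promoters in the table hold it over the same length. The AP-1 sequence TGANTCA occurred in none of the 3 and in 6.75% of all. A match is a run of letters and not a measured site.

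The other called genes were mostly near-identical to another gene. RSEM divides reads among such copies, so the value of any 1 copy is uncertain. Stretches of coding sequence around a differing base are given for 5 pairs, in GENCODE vM21 transcripts, because they show how little distinguishes a copy from its coding gene. Capitals mark the bases that differ.
Rpl3: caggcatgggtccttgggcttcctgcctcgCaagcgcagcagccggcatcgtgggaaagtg
Rpl3-ps1: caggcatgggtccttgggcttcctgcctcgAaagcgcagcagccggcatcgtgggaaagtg
Rpl34: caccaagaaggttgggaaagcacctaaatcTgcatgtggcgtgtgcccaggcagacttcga
Rpl34-ps1: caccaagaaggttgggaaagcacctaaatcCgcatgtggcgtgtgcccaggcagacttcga
Rpl35a: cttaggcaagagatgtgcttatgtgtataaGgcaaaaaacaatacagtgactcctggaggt
Rpl35a-ps2: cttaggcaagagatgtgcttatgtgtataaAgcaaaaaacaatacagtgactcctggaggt
Rpl26: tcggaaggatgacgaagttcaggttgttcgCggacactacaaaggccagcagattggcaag
Gm15772: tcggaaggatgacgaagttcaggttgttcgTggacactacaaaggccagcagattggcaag
Rps2: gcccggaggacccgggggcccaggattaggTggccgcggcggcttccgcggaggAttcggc
Rps2-ps13: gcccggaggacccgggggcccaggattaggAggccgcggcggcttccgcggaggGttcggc
Over their aligned lengths, Rpl3-ps1 differed from Rpl3 at 2 of 1210 bases, Rpl34-ps1 from Rpl34 at 2 of 354, and Rpl35a-ps2 from Rpl35a at 1 of 333. Gm15772 differed from Rpl26 at 2 of 438 bases and Rps2-ps13 from Rps2 at 7 of 882. All of these genes encode, or are copies of messages for, proteins of the cytosolic ribosome.

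Rpl3-ps1, on chromosome X, was at 0, 0, 0 and 8.32 TPM in wild type and at 688.28, 339.49 and 491.84 TPM in the libraries labelled knockout, a difference of 8.12 ± 0.99 (log2, SE; adjusted p = 0.000249). Rpl3, its coding gene on chromosome 15, was at 406.54 to 926.42 TPM in wild type and 132.82 to 252.89 TPM in the libraries labelled knockout, a difference of the opposite sign that did not pass (-1.66, adjusted p = 0.0635). In controls the Rpl3 difference was -1.73 and did pass (adjusted p = 0.00534). Summed over Rpl3 and its 4 matched copies, wild type held 407 to 927 TPM and the libraries labelled knockout 473 to 943 TPM, and the groups overlapped (log2 difference 0.16 ± 0.35).

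Rpl34-ps1, on chromosome 6, ran in the opposite direction. It was at 304.57, 191.13, 352.66 and 209.28 TPM in wild type and at 1.34, 2.99 and 0 TPM in the libraries labelled knockout, a difference of -6.93 ± 0.67 (log2, SE; adjusted p = 1.07e-05). Rpl34 itself was higher in all 3 libraries labelled knockout, at 325.80 to 367.39 TPM against 181.77 to 225.18 TPM (log2 difference 0.75, adjusted p = 0.983). Their sum, with 3 further copies, was 391.05 to 577.84 TPM in wild type and 325.80 to 370.38 TPM in the libraries labelled knockout, which did not overlap but did not pass either (log2 difference -0.42 ± 0.38).

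Gm15772, a copy of Rpl26, was at 0.45 to 6.08 TPM in wild type and 275.05 to 317.07 TPM in the libraries labelled knockout (log2 difference 6.37 ± 0.75, adjusted p = 0.000184). Rpl35a-ps2 was at 0 to 16.25 TPM in wild type and 105.11 to 219.24 TPM in the libraries labelled knockout (4.79 ± 0.96, adjusted p = 0.0440). In both families the coding gene had the lower mean in the libraries labelled knockout and the family sum overlapped between genotypes. Rps2 and Rpl29 were called as coding genes and have many copies. Rps2 was at 109.37 to 154.81 TPM in wild type and 395.87 to 546.68 TPM in the libraries labelled knockout (1.78 ± 0.34, adjusted p = 0.0361), while its copy Rps2-ps13 was at 1065 to 1430 TPM and 430 to 815 TPM. Summed with all 18 matched copies, Rps2 had a difference of -0.48 ± 0.28, with overlap. Rpl29 was at 2.25 to 9.84 TPM in wild type and 92.50 to 181.80 TPM in the libraries labelled knockout (4.54 ± 0.73, adjusted p = 0.00727). Summed with 14 copies, its difference was 0.15 ± 0.40, with overlap.

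**Figure D2:**
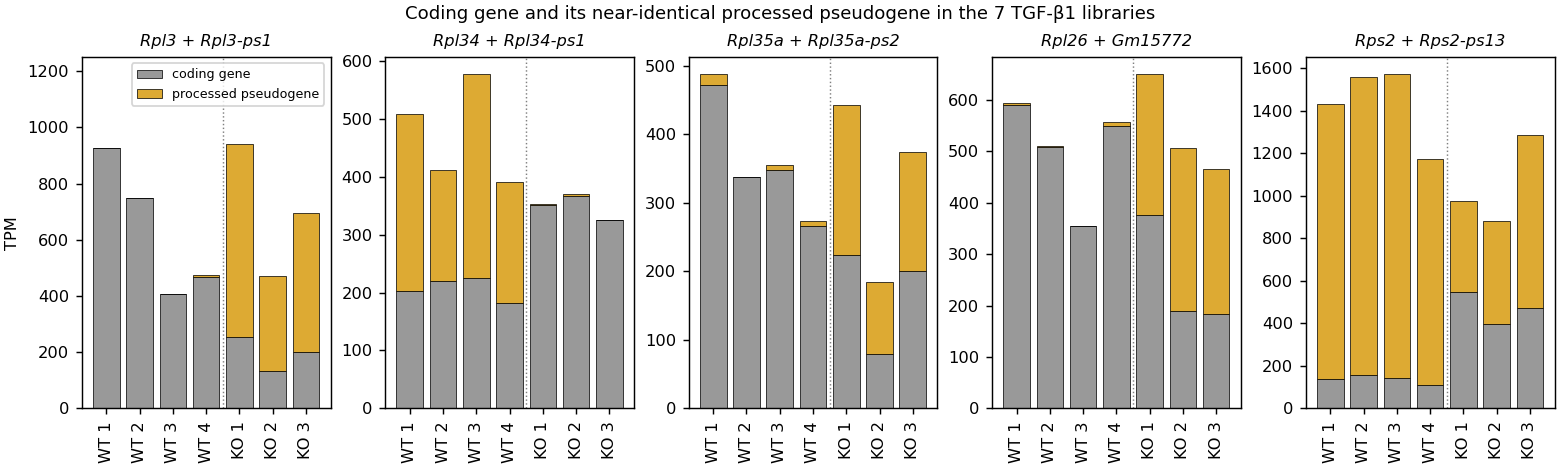
TPM of a coding gene (grey) and 1 near-identical processed pseudogene (yellow), stacked, in each of the 7 TGF-β1 libraries, where WT is wild type and KO is labelled knockout. The split between the parts of a bar differs between genotypes in all 5 pairs. The whole bars of Rpl3, Rpl35a, Rpl26 and Rps2 overlap between genotypes, and those of Rpl34 do not.

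Of the other called pseudogenes, Gm10704 (a copy of Rtraf), Gm8615 (Gnpda1) and Gm10157 (Eif1) were higher in the libraries labelled knockout, by 5.61, 5.17 and 4.54 on the log2 scale. Gm8615 was listed at 0 in all 4 wild-type libraries and at 21.87 to 55.53 TPM in the other 3. Gm12892 (Ckb), Gm15745 (Rps19) and 5730416F02Rik (closest to Capg) were lower, by -5.05, -6.17 and -6.21. Gm15745 was listed at 0 in all 3 libraries labelled knockout and at 55.28 to 81.09 TPM in wild type. Identity to the coding gene was 96.5% (Gm15745, over 115 bases) or more, except for 5730416F02Rik, which had 87.7% and was not counted as a copy. The 2 called genes with no symbol, ENSMUSG00000071476 and ENSMUSG00000072548, held the same value in every library, 35.91 to 41.05 TPM in wild type and 0 to 0.32 TPM in the libraries labelled knockout, so they count as 1 observation.

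When the TPM of 997 pseudogenes matching a coding gene at 95% identity over 80% of their length was added to that gene, 11805 genes were tested and 6 were called. These were Npy and Cd36, higher, and Ctsd, 5730416F02Rik and the 2 unnamed genes, lower. Dcstamp and Chac2, called in the main fit, were not among them. This alternative was chosen after the data had been seen.

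Control libraries gave a partly separate view of genotype, since they share no library with the TGF-β1 comparison. Both differences come from 1 fit, however, and share its estimate of the spread of each gene. Whether they share animals is unknown. There, 18 genes were called (0.148%), 10 higher and 8 lower. Of the 19 genes called under TGF-β1, 14 were also called in controls in the same direction, and 5 were not: Cd36, Ctsd, Dcstamp, Chac2 and Gm10157. For these 5 the difference between the TGF-β1 and control effects was tested directly, and no gene of the whole table passed (limma, 0 called, smallest adjusted p 0.300 for Ctsd, 569 genes at an unadjusted p under 0.05). The Ctsd effect differed by -2.38 on the log2 scale, and that of Cd36 by 5.08 (adjusted p = 0.997). Unadjusted, the limma p of this difference was 2.66e-05 for Ctsd, 0.000698 for Gm10157, 0.000996 for Cd36, 0.00738 for Chac2 and 0.0327 for Dcstamp. The 5 were picked for a call in 1 comparison and not the other, which favours low values. None of the 5 was therefore shown to differ by genotype more under TGF-β1 than without it, and equal effects were not shown either.

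**Figure D3:**
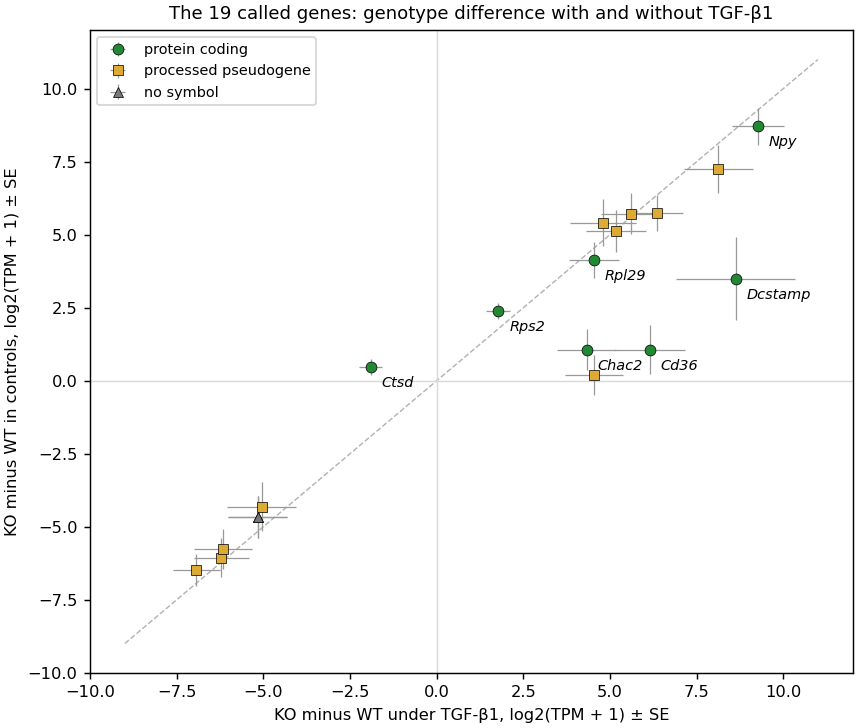
Difference between labelled knockout (KO) and wild type (WT) in log2(TPM + 1), under TGF-β1 on the horizontal axis and in controls on the vertical axis, for the 19 called genes with bars of 1 SE. The dashed line marks equal differences. The other genes lie near it, and Cd36, Chac2, Ctsd, Dcstamp and the pseudogene Gm10157 lie away from it. The 2 genes with no symbol share 1 point.

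Genes that came next in rank without passing are given as values. Colec12, a scavenger receptor, was at 0.16 to 0.89 TPM in wild type and 43.40 to 235.14 TPM in the libraries labelled knockout (adjusted p = 0.0642). Llgl2, a cell polarity gene, and Snx32, a sorting nexin, were listed at 0 in all 4 wild-type libraries and were at 8.48 to 21.85 TPM and 14.24 to 40.37 TPM in the others (adjusted p = 0.0541 and 0.108). Fah, which breaks down tyrosine, was listed at 0 in wild type and was at 17.34, 0.93 and 26.59 TPM, and it passed without labelled-knockout library 2 (adjusted p = 0.00254). Mettl18, Cenpj and Pcgf1 were also non-overlapping, with adjusted p of 0.0642, 0.123 and 0.141. Cenpj passed without wild-type library 1 (adjusted p = 0.0161), the only wild-type TGF-β1 library in which it was above 0.

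On the lower side, Trp53inp1, a stress gene activated by p53, was at 25.24, 11.55, 28.52 and 3.23 TPM in wild type and at 0.48, 1.52 and 0.04 TPM in the libraries labelled knockout (adjusted p = 0.118), and it passed without wild-type library 4 (adjusted p = 0.0233). Ilvbl was at 31.54 to 71.30 TPM in wild type against 0.17 to 11.26 TPM (adjusted p = 0.114), and passed without labelled-knockout library 1 (adjusted p = 0.0370). Rpl3 passed without wild-type library 3 (adjusted p = 0.0378). Pld4, a lysosomal nuclease, was at 697 to 1527 TPM against 291 to 461 TPM, and Syngr1 at 807 to 1109 TPM against 151 to 549 TPM (adjusted p = 0.253 and 0.236). Trpm2, a cation channel, was at 8.31 to 39.87 TPM against 1.09 to 1.65 TPM. Htr2b, a serotonin receptor, and Nes, an intermediate filament gene, were listed at 0 in all 3 libraries labelled knockout, and were at 31.52 to 93.21 TPM and 6.96 to 16.94 TPM in wild type. Dhx32 was at 33.25 to 46.22 TPM in wild type and at most 0.10 TPM in the others. Trpm2, Htr2b, Nes and Dhx32 did not pass in limma (adjusted p of 0.384, 0.476, 0.413 and 0.363). In controls, Dhx32 was at 0.10 to 37.18 TPM in wild type and 0.02 to 37.54 TPM in libraries labelled knockout. Htr2b was at 0 to 131.41 TPM and 0 to 27.36 TPM there. Dclre1a, Cmtm8, Rps2-ps13 and Atp6v0c-ps2 were lower without overlap too, with adjusted p of 0.476 to 0.496.

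No gene of the TGF-β pathway itself passed the adjusted threshold. Of the ligands and their carriers, 4 of 16 in the table could be tested and 0 were called. Tgfb1, the ligand gene, was at 0.10 to 2.85 TPM in wild type and 0.30 to 5.49 TPM in the libraries labelled knockout. Nrros, which holds latent TGF-β1 on macrophages, was at 48.85, 68.23, 104.06 and 118.41 TPM in wild type and at 172.27, 198.47 and 268.35 TPM in the libraries labelled knockout. The groups did not overlap, and the difference of 1.37 ± 1.08 did not pass (log2, SE; adjusted p = 1.00). The SE of Nrros draws on the controls too, where wild-type library 4 was at 0.13 TPM. Gdf15, a stress-induced relative, was at 9.14 to 58.95 TPM and 0 to 27.41 TPM.

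Receptors overlapped throughout, with 0 of 8 tested genes called and 0 without overlap. Tgfbr1, the type I receptor, was at 18.73 to 170.94 TPM in wild type and 42.83 to 72.44 TPM in the libraries labelled knockout. Tgfbr2, the type II receptor, was at 0.03 to 32.74 TPM and 12.01 to 16.19 TPM. Among 7 tested Smad genes 0 were called. Smad2, the other receptor-activated Smad of this pathway, was at 32.97, 28.96, 94.54 and 0.02 TPM in wild type and at 17.74, 0.04 and 41.41 TPM in the libraries labelled knockout. Smad4, the shared partner, was at 0.02 to 43.28 TPM and 0.12 to 11.05 TPM, and Smad7, the inhibitor, at 0.91 to 18.68 TPM and 0.01 to 35.74 TPM. Each of these Smad genes spanned from near 0 to above 10 TPM within a genotype, and the signs of Smad2, Smad4, Smad7 and both receptors turned when some libraries were left out.

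Feedback and target genes of TGF-β were called in 0 of 23 tested cases, with a median difference of 0.06, the same as over all genes, and -0.41 without wild-type library 1. Hes1, a transcriptional repressor induced by Notch and TGF-β, was at 208.11, 20.91, 48.06 and 19.17 TPM in wild type and at 0.03, 0.03 and 21.89 TPM in the libraries labelled knockout. Library 3 of those labelled knockout lay within the wild-type range, and the difference of -3.99 ± 1.04 passed only without that library (adjusted p = 0.265 with it, 0.0139 without). Pmepa1, which restrains Smad signalling, was arranged likewise, at 39.22 to 49.06 TPM in wild type and at 4.43, 3.10 and 44.74 TPM. Tgfbi, a secreted matrix protein, was at 40.73 to 1188 TPM and 817 to 1992 TPM, and Klf10, an early response repressor, at 0.23 to 83.80 TPM and 33.55 to 74.51 TPM.

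Contractile and matrix genes, the hallmark of myofibroblasts, were mostly at or near 0. Of 23 contractile genes, 8 could be tested and 0 were called. Acta2, which encodes smooth muscle actin, reached 22.47 TPM in wild-type library 3 and was at 0.12 TPM or less in the other 6. Cnn2, a calponin, was at 0.72, 50.53, 1.45 and 69.14 TPM in wild type and at 82.37, 58.27 and 120.59 TPM in the libraries labelled knockout. Vim, vimentin, was at 867 to 2573 TPM and 1269 to 3080 TPM. Of 35 collagen and matrix genes, 5 could be tested, and 21 were at 0 in all 7 libraries, among them Col1a1. Src was at 0 in all 7 as well, and Pou4f1 was above 0 in 1 library, at 0.01 TPM. Among macrophage surface genes, Adgre1 (F4/80) was at 217 to 591 TPM and 120 to 471 TPM and Itgam (CD11b) at 52.17 to 81.35 TPM and 34.99 to 74.52 TPM, with overlap.

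Lipid genes had Cd36 as their 1 called member among 29 tested, with 18 positive and 11 negative differences and a median of 0.39, against 0.06 over all genes. Plin2, the coat protein of lipid droplets, was at 145.68, 266.09, 181.86 and 272.04 TPM in wild type and at 483.67, 588.97 and 470.59 TPM in the libraries labelled knockout. The groups did not overlap, but the difference of 1.29 ± 0.33 did not pass (log2, SE; adjusted p = 0.265). Cpt1a, which brings fatty acids into mitochondria, was at 16.89, 17.54, 20.95 and 0 TPM against 39.05, 31.25 and 44.44 TPM (adjusted p = 0.937). Lpl, lipoprotein lipase, was at 66.70 to 249.29 TPM in wild type and at 1558, 466 and 160 TPM in the libraries labelled knockout, the last within the wild-type range. Acsl3, an acyl-CoA synthetase, was lower without overlap, at 31.30, 26.94, 41.73 and 12 TPM in wild type against 4.48, 5.81 and 2.78 TPM (adjusted p = 0.988). Pnpla2, a lipase of droplets, and Fabp5, a fatty acid carrier, overlapped. Ch25h, an enzyme that makes an oxysterol, was at 140.54 to 833.14 TPM and 181.66 to 1062 TPM. The mean level of the lipid list was lowest, at 4.36, in labelled-knockout library 2 and highest, at 6.00, in labelled-knockout library 1. Its median difference was 0.98 without the former and 0.10 without the latter.

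Cathepsins and cystatins had Ctsd as their 1 called member among 15 tested, with 4 positive and 11 negative differences and a median of -0.24. Without wild-type library 4 the median was 0.09. Lysosomal hydrolases and membrane proteins had a median of -0.12 over 42 tested genes with 0 called and 4 (9.52%) lower without overlap, against 2.34% of all genes.

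Class I antigen presentation was narrowly higher in all 3 libraries labelled knockout as a mean level, a split that depends on H2-T24. The mean log2(TPM + 1) over 21 tested genes was 6.51, 6.56, 6.10 and 6.31 in wild type and 7.16, 6.75 and 6.65 in the libraries labelled knockout, without overlap. The gap was narrow, 6.56 against 6.65. Among the 55 lists, only the osteoclast and fusion list also had means without overlap, and a few such splits can arise from regrouping alone. Of the 21, 16 differences were positive, 0 passed, and 5 genes (23.8%) were non-overlapping, all of them higher. Over all genes, 52.9% of differences were positive and 3.15% of genes were higher without overlap. H2-K1, a classical class I heavy chain, was at 1113, 791, 612 and 974 TPM in wild type and at 2304, 1706 and 1667 TPM in the libraries labelled knockout (log2 difference 1.14 ± 0.29, adjusted p = 0.265). B2m, the light chain, was at 3676 to 4696 TPM and 5322 to 5919 TPM (0.44 ± 0.20, adjusted p = 0.937). Tap2, part of the peptide transporter, was at 21.93 to 34.52 TPM and 51.05 to 97.49 TPM. H2-T24 and H2-D1 were the others. H2-T24 was at 0, 0.14, 0 and 0 TPM in wild type and at 0.60, 24.60 and 3.49 TPM in the libraries labelled knockout. The narrow gap between the mean levels does not hold without H2-T24, so it does not stand for the list as a whole. In controls the median of this list was 0.09. Under TGF-β1 it was 0.61, and 0.39 without wild-type library 1.

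Interferon-stimulated genes had a median difference of 1.14 over 31 tested genes, with 26 positive, 0 called and 1 non-overlapping gene, Cmpk2 (3.23%, against 3.15% of all genes). Library 2 of those labelled knockout carried this median, with a mean level of 6.71 against 4.18 and 2.79 in the other 2 and 2.42 to 4.49 in wild type. Without it the median was 0.28. Cmpk2 was listed at 0 in wild type and was at 3.35, 110.17 and 0.03 TPM in the libraries labelled knockout. Its lack of overlap rests on counting 0.03 TPM as above 0. Rsad2, an antiviral enzyme, was at 10.73, 110.64 and 0 TPM in the libraries labelled knockout and at most 0.01 TPM in wild type. Irf7, a transcription factor of the interferon response, was at 65.11, 146.91 and 0.12 TPM in the libraries labelled knockout, and at 39.65 TPM in wild-type library 2 against 0.10 TPM or less in the other 3. Oasl2 was at 7.13, 199.77 and 84.09 TPM, and in wild type at 30.74 TPM in library 2 and 0.16 TPM or less elsewhere.

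Annexins, S100 proteins and galectins, which bind calcium, membranes or sugars, had 16 positive and 3 negative differences among 20 tested, a median of 0.38, or 0.26 without labelled-knockout library 1, and 0 called. S100a10 and its partner Anxa2 were both non-overlapping. Anxa2 was at 396.12, 693.61, 587.92 and 286.80 TPM in wild type and at 821.52, 922.32 and 975.62 TPM in the libraries labelled knockout (log2 difference 0.96 ± 0.31, adjusted p = 0.583). S100a10 was at 56.96 to 401.12 TPM and 483.40 to 829.80 TPM (1.44 ± 0.52, adjusted p = 0.743). Lgals8 was at 41.48 to 48.33 TPM and 70.44 to 132.91 TPM, and Lgals3 overlapped at 3139 to 10347 TPM and 6305 to 21579 TPM.

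Osteoclast and fusion genes were led by Dcstamp, the 1 called of 13 tested. The mean level was 3.72 to 4.41 in wild type and 4.61 to 4.97 in the libraries labelled knockout. Without Dcstamp the mean of the other 12 was 4.02 to 4.76 and 4.28 to 4.67, with overlap. The median difference of the 13 was 0.01 and changed sign without wild-type library 1 or labelled-knockout library 3. Cd44, an adhesion receptor, was at 27.04 to 122.41 TPM against 122.75 to 267.92 TPM, so the groups nearly met without overlapping. Nfatc1, the main regulator of osteoclast genes, overlapped at 0.02 to 72.78 TPM and 26.32 to 47.99 TPM. Acp5, tartrate-resistant acid phosphatase, was listed at 0 in all 3 libraries labelled knockout and was at 23.29, 45.03, 0.16 and 0.28 TPM in wild type. These members therefore did not go in a single direction.

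Genes of the unfolded protein and integrated stress responses had 24 negative and 8 positive differences among 32 tested, a median of -0.44 and 0 called. The median was -0.25 without wild-type library 2, and 0.25 in controls. Asns, asparagine synthetase, was at 32.05 to 250.55 TPM in wild type and at 70.98, 0 and 38.22 TPM in the libraries labelled knockout. Sesn2 was lower without overlap, at 15.60 to 35.31 TPM against 0 to 13.77 TPM, and Nupr1 was higher without overlap, at 0.20 to 20.06 TPM against 20.16 to 56.50 TPM. Among 26 tested p53 targets, 0 were called and the median was -0.16, or 0.06 without labelled-knockout library 1 and -0.56 without wild-type library 3. Phlda3, an inhibitor of Akt, was at 62.63 to 273.90 TPM in wild type and at 0.04, 122.32 and 30.04 TPM in the libraries labelled knockout. Il21r, a cytokine receptor, was at 47.59 to 157.36 TPM and 24.11 to 113.07 TPM.

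S-phase and mitosis genes differed widely among the wild-type libraries, and 0 of either list were called. S-phase genes had 35 of 44 differences negative and a median of -0.44, and their mean level was 7.31 in wild-type library 3 and 4.55 in wild-type library 4, with 5.21 to 5.59 in the libraries labelled knockout. Without wild-type library 3 the median was -0.13, and without library 4 it was -0.96. In controls, which share none of these libraries, 34 of 44 were negative and the median was -0.54. The control mean levels overlapped, at 3.79 to 6.07 in wild type and 3.11 to 6.30 in libraries labelled knockout. The genes of a list are not independent, so these counts do not amount to a replication. Mitosis genes had 33 of 41 differences positive and a median of 0.49, and wild-type library 3 was the lowest at 6.05. Without it the median was 0.11, and in controls it was 0.23. Kif2c, a mitotic kinesin, was at 0.87 TPM in that library and 31.17 TPM or more in the other 6.

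All 13 mitochondrially encoded genes had a negative difference, with a median of -0.22 and 0 called. The median was -0.07 without wild-type library 1 and -0.39 without labelled-knockout library 1. In controls 12 of 13 were negative, with the same median of -0.22. The mean levels overlapped in both comparisons. Under TGF-β1 they were 10.06 to 10.78 in wild type and 9.90 to 10.37 in libraries labelled knockout. In controls they were 10.52 to 11.41 and 10.21 to 11.21. mt-Co1, a subunit of cytochrome c oxidase, was at 6011 to 7930 TPM in wild type and 4283 to 5073 TPM in the libraries labelled knockout (log2 difference -0.55 ± 0.26, adjusted p = 0.946). Ribosomal protein genes had 60 of 81 differences negative, a median of -0.24 and 11 non-overlapping members (13.6%), 4 higher and 7 lower, where all genes gave 3.15% higher and 2.34% lower. Their median was -0.11 without labelled-knockout library 2 and -0.38 without labelled-knockout library 1. Rpl30 was at 126.60 to 255.06 TPM in wild type and 17.93 to 108.47 TPM in the libraries labelled knockout (adjusted p = 0.674). Several of these genes have near-identical copies, as described for Rpl3 and Rps2.

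**Figure D4:**
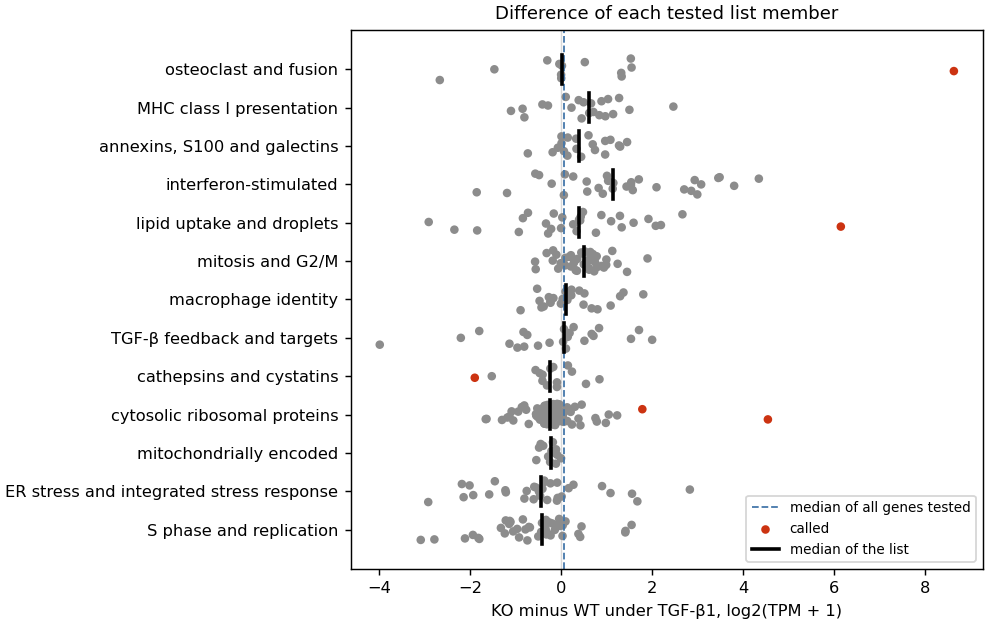
Difference between labelled knockout (KO) and wild type (WT) under TGF-β1, in log2(TPM + 1), of each tested member of 13 gene lists. Grey points did not pass, red points were called, black bars are list medians and the dashed line is the median of all genes tested, 0.06. The called members are Cd36, Ctsd, Dcstamp, Rpl29 and Rps2.

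**Figure D5:**
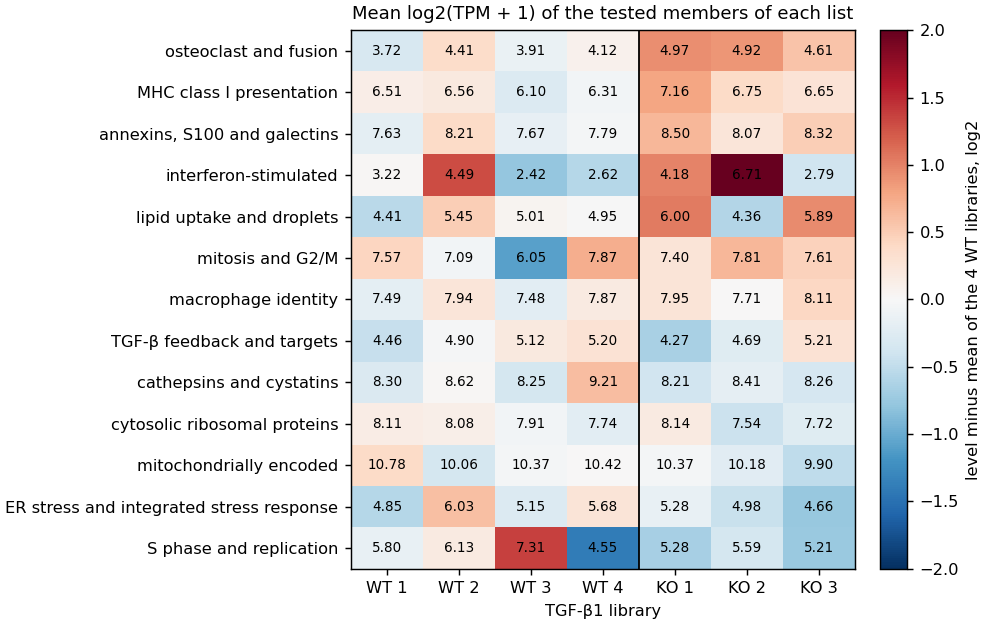
Mean log2(TPM + 1) of the tested members of the 13 lists in each of the 7 TGF-β1 libraries, printed in each cell and coloured by the distance from the mean of the 4 wild-type (WT) libraries. The mean of class I presentation genes is higher in all 3 libraries labelled knockout (KO), by a narrow gap that depends on H2-T24. That of osteoclast genes is higher there through Dcstamp alone. Interferon-stimulated genes stand out in KO 2 and S-phase genes in WT 3.

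Markers of lymphocytes, mast cells and basophils were mostly near 0. Dendritic cell markers, and erythroid and megakaryocyte markers, were not low as sums. Of 14 lymphocyte markers 2 passed 1 TPM in any of the 7 libraries, Lck at 12.60 TPM in labelled-knockout library 1 and Cd4 at 52.26 TPM in labelled-knockout library 3, and their sum was at most 0.73 TPM in wild type. Itga2b, a megakaryocyte integrin, was at 25.69 TPM in labelled-knockout library 3 and 0 in the other 6. Summed fibroblast markers, 2727 to 5043 TPM in wild type and 4113 to 5349 TPM in the libraries labelled knockout, were almost wholly S100a4, which macrophages express. Of the 12 fibroblast markers the other one above 1 TPM was Pdgfrb, at 9.72 TPM in wild-type library 4 and 0 in the other 6, and Thy1, Pdgfra and Col1a1 were at 0. Summed endothelial markers (3 of 9 above 1 TPM in any of the 7) were 13.95 to 49.36 TPM and 1.51 to 35.46 TPM, and neutrophil markers (2 of 13) 3.13 to 25.43 TPM and 7.74 to 13.44 TPM. Dendritic cell markers (4 of 12) were 122 to 333 TPM and 124 to 298 TPM, erythroid and megakaryocyte markers (4 of 11) 44.12 to 253.62 TPM and 61.29 to 408.78 TPM, and 10 mast and basophil markers 0.05 TPM or less. The part of these cells in the results was not tested. In libraries made from many cells, fewer cells of a type and less RNA per cell cannot be told apart.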

How the data were processed

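Reads were processed by the authors. Per the submitters' processing notes, FastQC, Trim Galore and RSEM were used with the mouse build mm9, and versions are not given in the sources used here. Per the labels' protocols, cDNA was made by SMART-seq2. The deposited values are TPM for 37620 gene IDs, of which 32897 had a symbol in GENCODE vM21, which served as the source of names, gene types, chromosomes and transcripts. TPM keeps no depth, so no interval from read counts could be given.

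A gene was tested if 3 or more of the 17 libraries held it at TPM 1 or above, on log2(TPM + 1), a scale that understates changes of low genes. One limma 3.58.1 fit in R 4.3.3 (lmFit, eBayes with trend) covered the 4 groups, with no covariate, and gave the genotype difference under TGF-β1, in controls, and their difference. Calls used a Benjamini-Hochberg adjusted p under 0.05. Pseudogenes were matched to coding genes with BLAST 2.17.0. Named genes were fixed by rule: 14 pathway and marker genes, and per direction up to 15 genes with a mean of at least 10 TPM in a group, no overlap and a symbol that is not a clone name, first called genes by size of difference and then others by unadjusted p. The rule also took up to 6 members of each list by size of difference, and 10 genes that an earlier description named. Clone-named and unnamed called genes, family parents, list members outside those 6, and the 13 lists plotted of 55 were chosen after their values were seen. Members and lists were chosen with earlier results of these data known. Lists are described by counts and medians without a test. No column of values was left unused (0).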

Additional observations from a re-analysis of the deposited data

Results flagged for a closer look

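In the 4 wild-type TGF-β1 libraries, the lowest or highest value was set against the nearest other value for 145 quantities, and 19 stood apart by Dixon's criterion for 4 values, applied on the log2 scale to gene levels. Chance gives about 1 in 20, and several of these are values near 0. Library 1 stood apart for Cenpj (5.17 TPM) and Rsad2 (0.01 TPM). Library 2 stood apart for Oasl2 (30.74 TPM), Irf7 (39.65 TPM), Pmepa1 (39.22 TPM), H2-T24 (0.14 TPM), Chac2 (0.11 TPM), Mettl18 (0.04 TPM) and the mean level of dendritic cell markers (2.916 on the log2 scale). Library 3 stood apart for S100a10 (56.96 TPM), for the share taken by its most abundant gene (4.83%), for the mean log2 level of microglia-type genes (4.354) and for that of p53 targets (3.73). Library 4 stood apart for Rpl3-ps1 (8.32 TPM), Npy (0.99 TPM), Pcgf1 (0.11 TPM), Syngr1 (806.92 TPM), Cpt1a (0 TPM) and the mean log2 level of genes every cell uses (8.914).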

How the results depend on the processing

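Called genes numbered 12 higher and 7 lower. Fitting the 7 TGF-β1 libraries alone gave 2 and 1, the replicate block 7 and 3, and protein-coding genes alone, with fewer genes tested, 3 and 1. Leaving out all libraries with over 10% of moderate genes at 0 gave 6 and 1, and adding pseudogenes to their parents, chosen after seeing the data, gave 2 and 4. Other settings stayed within 1.5 times. Leaving out 1 library gave 7 to 11 higher (7 without wild-type 2 or labelled knockout 1) and 5 to 11 lower (11 without wild-type 3 or labelled knockout 1). Same-numbered TGF-β1 libraries of the 2 genotypes did not deviate together (correlations -0.0379, -0.0334 and 0.0158). Control libraries were not part of this check, so it cannot tell whether libraries share an animal or culture. Npy and Rpl34-ps1 passed under every setting in which they were tested. Signs turned for Tgfbr1 with a pseudocount of 10 (-0.00244) and with detected genes as a covariate (-0.0464), and without libraries of many zeros for Smad2 (1.48), Smad4 (1.22), Tgfb1 (-0.20), Cd68 (0.0455) and Ch25h (-0.53). They turned on summing copies for Rps2 (-0.48) and Rpl3 (0.16). Without 1 library, the difference ran from -0.41 to 0.63 for Tgfbr1, -0.38 to 1.30 for Tgfbr2, -0.55 to 0.72 for Ch25h, -1.50 to 0.39 for Smad4, -2.33 to 0.26 for Smad7, -0.86 to 0.23 for Il21r, -2.29 to 0.67 for Smad2 and -0.38 to 0.15 for Itgam, crossing 0 in each. The cause was not tested. Read depth is unknown, so values near 0 cannot be told from missed transcripts.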
